A study of Mus musculus with 10 samples.

Results

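The Tmprss11 genes encode a family of serine proteases anchored in the membrane of epithelial cells. They were followed here in the inflamed skin of mice with and without the dopamine receptor agonist quinpirole. The members were the genes listed by symbol as Tmprss11a, Tmprss11b, Tmprss11d, Tmprss11e, Tmprss11f and Tmprss11g. All 6 had values, among 17016 gene symbols, and all 6 passed the filter on low values. The mice were BALB/c females, 10 to 11 weeks old, and whole skin was taken. Both groups had 5 daily applications of 5% imiquimod cream to shaved back skin. Imiquimod activates TLR7 and provokes inflammation used as a model of psoriasis. The quinpirole group (5 libraries) also received this agonist of DRD2 by 5 injections into the peritoneum, and the vehicle group (5 libraries) received the vehicle. No level can be placed against that of untreated skin, since samples without imiquimod were not analysed here. The labels do not say that each library came from a separate mouse, so any p-value measures the spread between these libraries.

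Proteases of this family are type II transmembrane proteins, with a short tail inside the cell, a SEA domain and a trypsin-like protease domain on the outside. They are made as inactive precursors that are cleaved to become active, and they are held in check by protease inhibitors made in the same epithelia. The family is best known from stratified epithelia such as those of the mouth, oesophagus, airway and epidermis. Tmprss11d is the mouse counterpart of human airway trypsin-like protease (HAT), Tmprss11e that of DESC1, Tmprss11a, Tmprss11b and Tmprss11f those of the HAT-like proteases, and Tmprss11g is also known as Desc4. HAT has been reported to cleave the receptor PAR2, and proteases of this kind to cleave the epithelial sodium channel.

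The genes form a single cluster. In the GENCODE M21 annotation of mm10 chromosome 5 carries 7 protein-coding Tmprss11 genes side by side between 86231481 and 86745815, a stretch of 514 kb, all of them on the minus strand. In order of coordinate these are Tmprss11c, Tmprss11d, Tmprss11a, Tmprss11g, Tmprss11f, Tmprss11b and Tmprss11e. Tmprss11b, the member with the widest difference between the groups, spans 86657631 to 86676362, and Tmprss11g spans 86485876 to 86518600. Tmprss11c was not analysed here. The coding sequences of the 6 members were 55.9% to 64.1% identical in pairs, over 15 pairs. No stretch of 50 bases was shared between the annotated transcripts of any 2 members. Of such stretches, 0.51% in Tmprss11d and 0.17% in Tmprss11b were also found in a transcript of another gene, and none in the other 4 members. Reads of that length or longer could therefore be told apart between members, although the read length is not given in the sources used here.

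The stretches just upstream of the start sites are shown as a description of members with lower and with similar levels under quinpirole. Whether these letters bear on the levels was not tested. RefSeq start sites on GRCm38.p6, the assembly also called mm10, were matched for 5 of the 6 members, and Tmprss11e had no entry. The 250 bases upstream of each start are printed on the minus strand, 5′ to 3′. Capitals mark matches, on either strand, to AACNNGTT, a loose form of the site of grainyhead-like (GRHL) transcription factors of epithelia, or to TGANTCA, the site of AP-1. The first 3 stretches belong to members with lower means under quinpirole, at chr5:86676299-86676548, chr5:86518601-86518850 and chr5:86468991-86469240.
Tmprss11b: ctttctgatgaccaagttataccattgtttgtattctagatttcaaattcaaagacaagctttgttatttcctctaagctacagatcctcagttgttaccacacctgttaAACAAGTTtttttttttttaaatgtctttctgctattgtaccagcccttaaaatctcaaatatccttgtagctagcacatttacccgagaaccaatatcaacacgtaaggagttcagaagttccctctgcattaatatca
Tmprss11g: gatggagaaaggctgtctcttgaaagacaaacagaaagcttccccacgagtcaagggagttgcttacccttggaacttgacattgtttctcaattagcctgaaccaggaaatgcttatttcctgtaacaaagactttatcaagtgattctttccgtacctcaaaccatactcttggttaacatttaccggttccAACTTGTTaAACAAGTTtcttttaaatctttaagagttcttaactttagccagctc
Tmprss11a: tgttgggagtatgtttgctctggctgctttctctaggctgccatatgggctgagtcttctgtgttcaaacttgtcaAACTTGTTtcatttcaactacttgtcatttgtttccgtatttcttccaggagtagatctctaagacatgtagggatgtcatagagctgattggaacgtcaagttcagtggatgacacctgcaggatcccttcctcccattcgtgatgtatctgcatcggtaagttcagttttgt
The next 2 belong to members whose means under quinpirole were somewhat above those in vehicle, at chr5:86632425-86632674 and chr5:86373388-86373637.
Tmprss11f: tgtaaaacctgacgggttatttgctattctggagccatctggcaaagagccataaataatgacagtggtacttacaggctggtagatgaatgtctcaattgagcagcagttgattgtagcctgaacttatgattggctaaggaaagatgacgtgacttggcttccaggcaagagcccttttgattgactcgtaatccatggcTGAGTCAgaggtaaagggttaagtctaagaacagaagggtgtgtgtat
Tmprss11d: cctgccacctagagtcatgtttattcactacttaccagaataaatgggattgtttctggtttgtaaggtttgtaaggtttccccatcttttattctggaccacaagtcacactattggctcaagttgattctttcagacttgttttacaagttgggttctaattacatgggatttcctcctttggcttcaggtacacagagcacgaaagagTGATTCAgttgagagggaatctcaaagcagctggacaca

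The GRHL pattern stood once upstream of Tmprss11b, with its first base 140 bases from the start, once upstream of Tmprss11a, 174 bases from the start, and 2 times upstream of Tmprss11g, 56 and 47 bases from the start. It was not among the letters of the Tmprss11d and Tmprss11f stretches. The AP-1 pattern stood 48 bases upstream of Tmprss11f and 39 bases upstream of Tmprss11d, and was not among the letters of the other 3. Of 32851 promoters in the same table, 3.64% held the GRHL pattern and 6.75% the AP-1 pattern in their 250 bases. TTGCNNAA (C/EBP, in 9.56% of promoters), TTCNNNGAA (STAT, 7.02%) and TATAAA (core promoter element, 12.4%) were also searched on both strands and matched none of the 5 stretches. These are matches of letters, chosen with the fold changes already known, and binding was not measured. GENCODE places the starts of Tmprss11b at 86676362 and of Tmprss11d at 86373420, both inside the RefSeq windows printed here, so the distances for both depend on the annotation.

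The labelled tissue was checked first. The keratins of basal keratinocytes, Krt5 and Krt14, averaged 3103 and 9269 normalised CPM (reads of a gene relative to all reads of the library, after TMM scaling) in vehicle. The suprabasal keratins Krt1 and Krt10 averaged 4571 and 1445. None of these 4 keratins was called between the groups by limma, that is, none had an adjusted p under 0.05 over all genes (0.281 to 0.967). The 10 libraries held between 6763367 and 8361877 reads assigned to genes, and 1 read was worth 0.119 to 0.146 CPM. Markers of other tissue had different means in the groups, with overlap of the libraries and none called. Higher and lower means are counted on the log2 scale here and in the gene lists below. Of 19 hair shaft markers, 19 had lower means with quinpirole, and their summed level ranged from 17.6 to 2640 CPM in vehicle and from 19.5 to 2842 with quinpirole. Of 12 skeletal muscle markers, 12 had higher means, with sums from 1440 to 5783 in vehicle and 3146 to 15370 with quinpirole. Sebaceous gland markers had higher means in 10 of 10 (median log2 fold change 0.62, sums from 2253 to 4581 in vehicle and 3861 to 5957 with quinpirole). Lower means were seen for 6 of 6 melanocyte markers (median -0.89), 5 of 5 endothelial markers (-0.42) and 4 of 5 tested neutrophil markers (-0.60). The part of these 4 kinds of cell in the members' values was not tested. The summed level of 10 suprabasal keratinocyte markers ranged from 10875 to 16445 in vehicle and from 10318 to 18744 with quinpirole, and that of 7 basal markers from 10289 to 17730 and from 9408 to 16022. In bulk tissue, fewer cells that express a gene and less RNA per cell cannot be told apart.

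The members differed in level. Levels were taken per kilobase of the transcript with the longest coding part. In vehicle the mean was highest for Tmprss11g, at 32.6 ± 7.79 CPM per kb (SD, n = 5 here and below). Tmprss11f followed at 18.6 ± 5.42, Tmprss11e at 11.8 ± 2.56, Tmprss11a at 8.33 ± 3.40, Tmprss11b at 5.39 ± 3.39 and Tmprss11d, the HAT counterpart, at 2.10 ± 0.418. Neighbours from Tmprss11f down to Tmprss11d lay within about the sum of their SDs of each other, whereas Tmprss11g stood above Tmprss11f by slightly more. With quinpirole the order was Tmprss11f at 24 ± 5.19, Tmprss11g at 15.9 ± 3.16, Tmprss11e at 9.33 ± 1.83, Tmprss11a at 2.75 ± 2.44, Tmprss11d at 2.38 ± 0.720 and Tmprss11b at 0.71 ± 0.248. The libraries of Tmprss11f and Tmprss11g overlapped there, as did those of Tmprss11a and Tmprss11d. The order depends on the transcript chosen. Over all annotated exons, retained introns included, Tmprss11e (11.8) stood above Tmprss11f (9.87) and Tmprss11b (5.39) above Tmprss11a (3.87) in vehicle.

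The comparison of quinpirole with vehicle asked how the agonist changed inflamed skin. The family was taken up because Tmprss11b and Tmprss11g were already known to stand among the smallest p-values of this comparison. The members' values are therefore a description, with no test. Log2 fold changes were taken after adding 1 to each CPM value, which makes the change of low genes smaller than without that addition. They compare means of log values, so they can differ in either direction from the ratio of the means.

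Tmprss11b, a HAT-like protease gene, had the widest difference. Vehicle replicates 1 to 5 held 28.8, 11.8, 17.3, 44.3 and 10.3 CPM of it, whereas the quinpirole values, by replicate from 1 to 5, were 2.38, 1.89, 4.50, 2.54 and 3.49. Each quinpirole library lay below each vehicle library, and vehicle replicate 4 was the highest. The means were 22.5 ± 14.2 and 2.96 ± 1.04 CPM, a ratio of 7.60 between vehicle and quinpirole. The log2 fold change was -2.41 (SE 0.35). The quinpirole level rested on few reads, 113 over the 5 libraries against 853 in vehicle. On recovered reads, without a pseudocount in CPM, edgeR gave -2.93 and DESeq2 gave -2.93.

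Tmprss11g was the most abundant member in vehicle per kilobase. Its level by replicate from 1 to 5 was 97.3, 69.5, 86.9, 129 and 84.7 CPM in vehicle and 50.2, 33.9, 40.3, 46.8 and 57.6 CPM with quinpirole. The groups did not overlap here either, and vehicle replicate 4 was again the highest. The means were 93.6 ± 22.4 and 45.8 ± 9.09 CPM, a ratio of 2.04 between vehicle and quinpirole, with a log2 fold change of -1.01 (SE 0.17). With 3511 and 1765 reads per group, counting error was small beside the spread between libraries.

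Tmprss11a, another HAT-like protease gene and the neighbour of Tmprss11g, had a lower mean but a split group. Vehicle replicates 1 to 5 measured 26.8, 19.5, 10.4, 34.5 and 19.6 CPM. In the quinpirole group, replicates 1, 2 and 4 measured 2.14, 2.33 and 3.31, and replicates 3 and 5 measured 14.6 and 14.2. These 2 libraries lay above vehicle replicate 3, so the groups overlapped, while 3 of 5 quinpirole libraries lay below every vehicle library. The means were 22.1 ± 9.03 and 7.31 ± 6.48 CPM, a ratio of 3.03 between vehicle and quinpirole. The log2 fold change was -1.76 (SE 0.49), whereas on recovered reads edgeR gave -1.61 and DESeq2 gave -1.60. The same 2 quinpirole libraries were also the highest of their group for Tmprss11b and for Tmprss11d.

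The other 3 members lay close together in the groups. Tmprss11e, the DESC1 counterpart, measured 39.7, 38.3, 34.5, 55.2 and 33.6 CPM in vehicle, by replicate from 1 to 5, and 36.5, 26.4, 37.5, 23.9 and 35.0 with quinpirole. The groups overlapped, with quinpirole replicates 2 and 4 below each vehicle library. The means were 40.3 ± 8.75 and 31.9 ± 6.26 CPM (log2 fold change -0.33, SE 0.16).

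Tmprss11f, a HAT-like protease gene, measured 43.4, 82.2, 53.1, 66.8 and 90.3 CPM in vehicle replicates 1 to 5. In quinpirole replicates 1 to 5 it measured 56.4, 93.2, 107, 85.1 and 90.3. The groups overlapped, with quinpirole replicates 2 and 3 above each vehicle library and vehicle replicate 1 the lowest of all. The means were 67.2 ± 19.5 and 86.4 ± 18.7 CPM (log2 fold change 0.38, SE 0.21).

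Tmprss11d had the lowest vehicle level per kilobase, with 3.90, 5.98, 6.55, 5.42 and 6.71 CPM by replicate from 1 to 5, and 5.00, 4.95, 9.68, 5.85 and 6.85 with quinpirole. The groups overlapped, and quinpirole replicate 3 was the highest. The means were 5.71 ± 1.14 and 6.46 ± 1.96 CPM (log2 fold change 0.14, SE 0.19). The value was -0.02 with the mean of skeletal muscle markers as a covariate and -0.0019 without quinpirole replicate 3, so its direction depended on both choices.

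**Figure D1:**
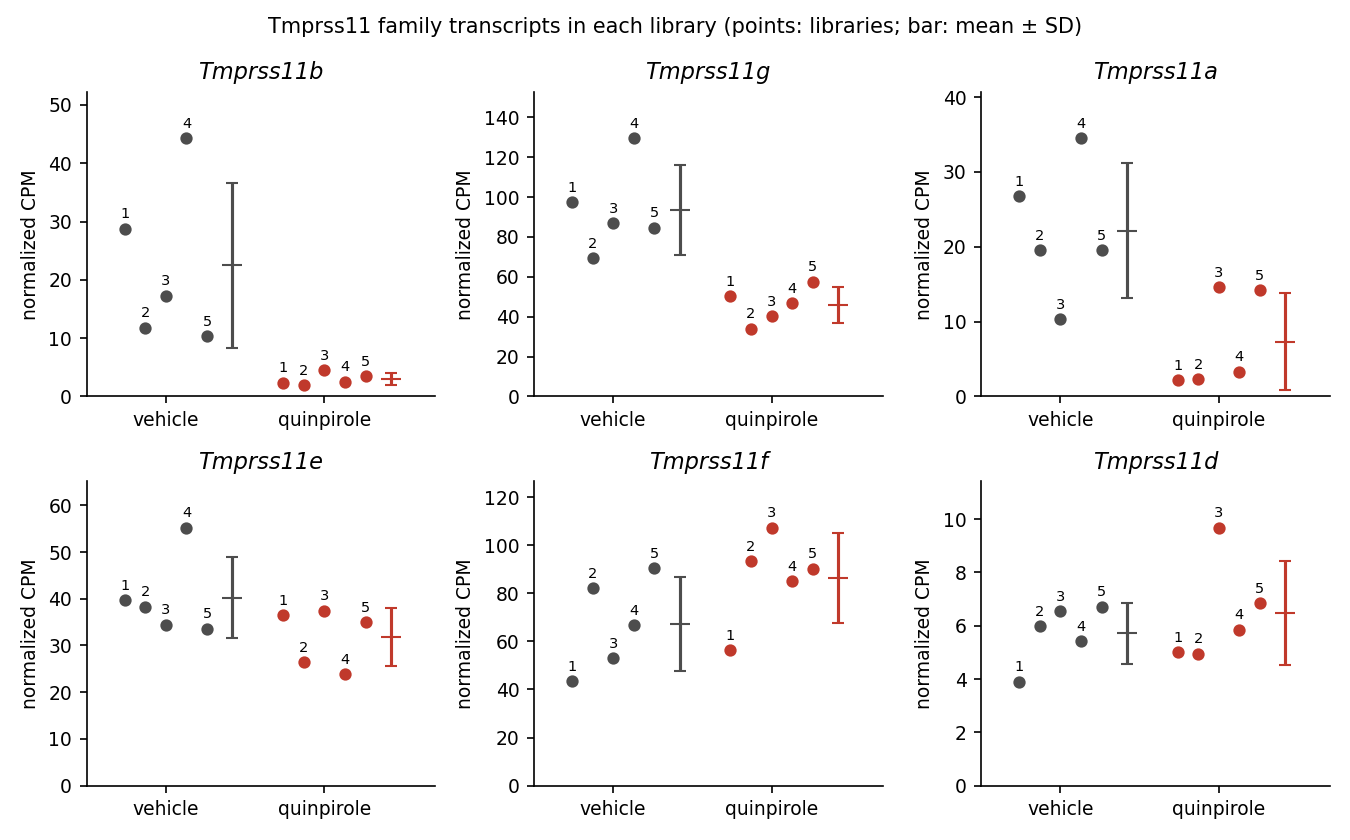
Normalized CPM of each Tmprss11 member (vertical axis, linear from 0) in the 5 vehicle and 5 quinpirole libraries, numbered by replicate, with the mean ± SD beside them. The groups are apart for Tmprss11b (vehicle 10.3 to 44.3, quinpirole 1.89 to 4.50) and Tmprss11g, and overlap for the other 4 members.

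Over the family, 4 of 6 members had lower means with quinpirole and 2 had higher means. The median log2 fold change was -0.67, where that of all 14548 tested genes was -0.0021. Limma called 0 of 6 members at an adjusted p of 0.05, and over all genes 0.0206%, or 3 (Igfbp5, Dbp and Pck1), of which 1 was lower with quinpirole (0.00687%). At an unadjusted p under 0.05, limma had 1657 genes, 11.4% of those tested. On recovered reads edgeR called 1 member, Tmprss11b (5 genes called in all, 0.0344%), and DESeq2 called 2, Tmprss11b and Tmprss11g (219 genes called in all, 1.51%). The groups were apart, with all quinpirole libraries lower, for 2 of 6 members and for 0.859% of all tested genes. With all quinpirole libraries higher these were 0 of 6 members and 1.34% of all genes. Since the members were chosen on this comparison, nothing is read from these counts.

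Lower and higher means were interspersed along the cluster, and a relation with position was not tested. The outermost members analysed, Tmprss11d and Tmprss11e, had log2 fold changes of 0.14 and -0.33. The neighbours Tmprss11a and Tmprss11g both had lower means, Tmprss11b further along had the lowest ratio, and Tmprss11f, which lies between Tmprss11g and Tmprss11b, had a higher mean. The nearest tested genes on either side of the cluster had small differences. Uba6, an enzyme that activates ubiquitin, had -0.01 on the log2 scale (SE 0.13, limma adjusted p = 0.982). Ythdc1, a nuclear reader of methylated adenosine in RNA, had 0.06 (SE 0.10, limma adjusted p = 0.844). The antisense gene Gm16579, which overlaps Tmprss11e on the plus strand, was not analysed here, and the libraries were made with a directional kit, per the labels.

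**Figure D2:**
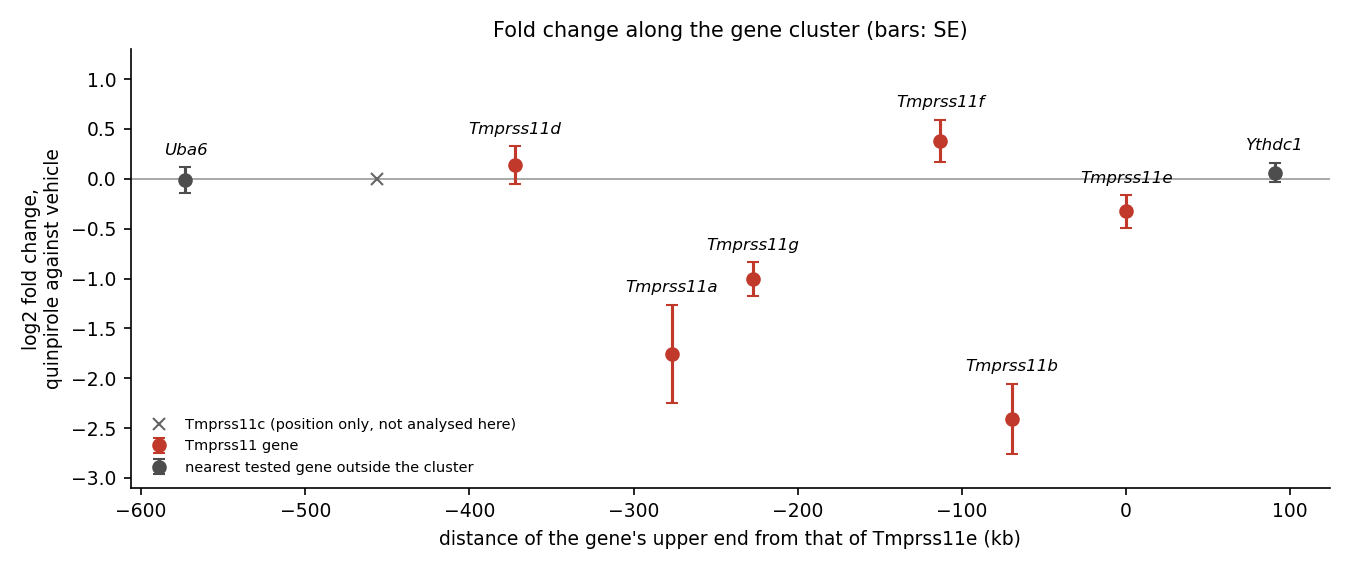
Log2 fold change of quinpirole against vehicle (vertical axis, bars are SE) for the 6 members in red and the nearest tested genes outside the cluster in grey, by distance in kb of the upper end of each gene from that of Tmprss11e (horizontal axis). Tmprss11f at 0.38 stands between Tmprss11g at -1.01 and Tmprss11b at -2.41, and Uba6 and Ythdc1 lie near 0.

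The make-up of the family's RNA differed along with these values. The summed level of the 6 members was 78.8 ± 15.5 CPM per kb in vehicle and 55.1 ± 8.69 with quinpirole. Tmprss11g made up 41.3% ± 4.85 of this sum in vehicle and 29.3% ± 6.26 with quinpirole, and Tmprss11f 24.2% ± 7.96 and 43.6% ± 7.64. The share of Tmprss11f ranged from 15.8% to 32.7% over the vehicle libraries and from 33.3% to 53.3% over the quinpirole libraries. The gap between these ranges is narrow and depends on the transcript chosen, as all these shares do. Tmprss11b gave 3.23% to 10.1% in vehicle and 0.935% to 1.66% with quinpirole. Tmprss11e kept a similar share, 15% ± 1.22 and 17.1% ± 3.38. These shares restate the same libraries' values, and a share can be higher because the others are lower.

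**Figure D3:**
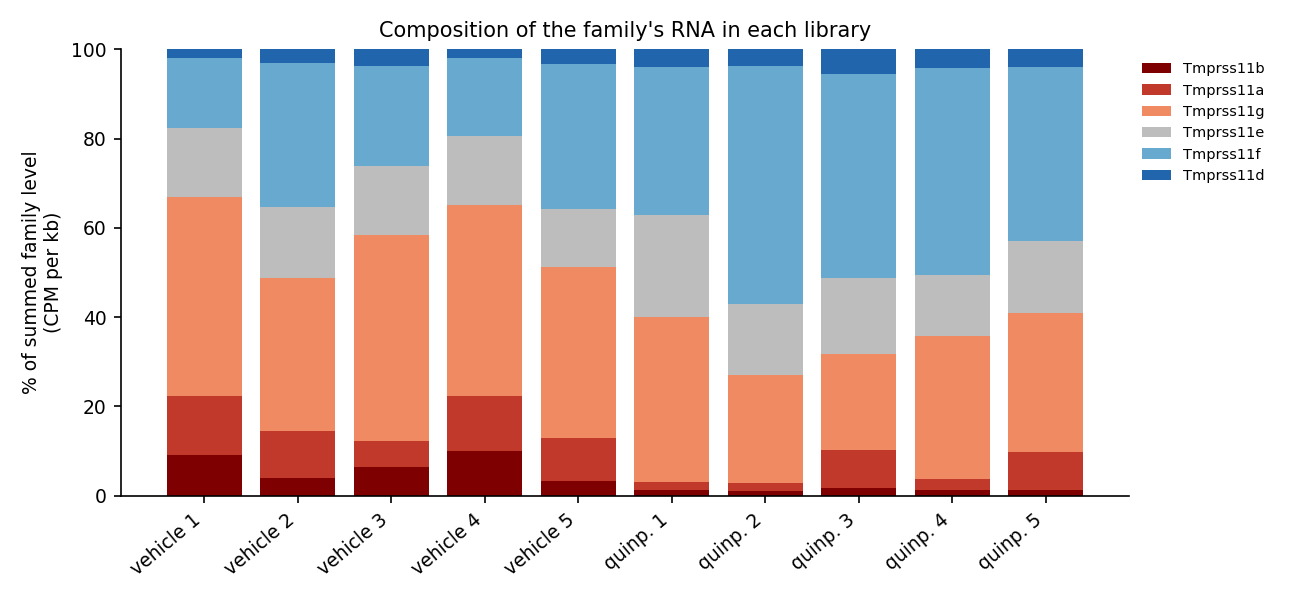
Share of each member in the summed family level (vertical axis, percent of CPM per kb of coding transcript) in each of the 10 libraries (horizontal axis). Tmprss11g holds the largest share in each vehicle library, from 34.3% to 46.2%, and Tmprss11f ranges from 33.3% to 53.3% in the quinpirole libraries.

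The fold changes were set beside the tissue content of the libraries. With the mean of the hair shaft markers as a covariate, the log2 fold change was -2.35 for Tmprss11b, -1.01 for Tmprss11g and -1.80 for Tmprss11a. With the suprabasal keratinocyte markers as a covariate the values were -2.33, -0.96 and -1.81, and with the muscle markers -2.22, -1.03 and -1.95. All 3 values kept their sign under each of these covariates. The part of hair and muscle content in the members' differences was not tested further. The smaller differences had SEs that were large beside them. Tmprss11e went from -0.33 to -0.26, -0.26 and -0.11 with the hair, suprabasal and muscle covariates (SE 0.16, 0.15 and 0.19). With the same covariates Tmprss11f went from 0.38 to 0.24, 0.25 and 0.25 (SE 0.19, 0.15 and 0.27). Tmprss11d went from 0.14 to 0.13, 0.08 and -0.02 (SE 0.20, 0.19 and 0.24). Single libraries moved Tmprss11b between -2.62, without vehicle replicate 5, and -2.12, without vehicle replicate 4, and Tmprss11g between -1.11 and -0.88.

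**Figure D4:**
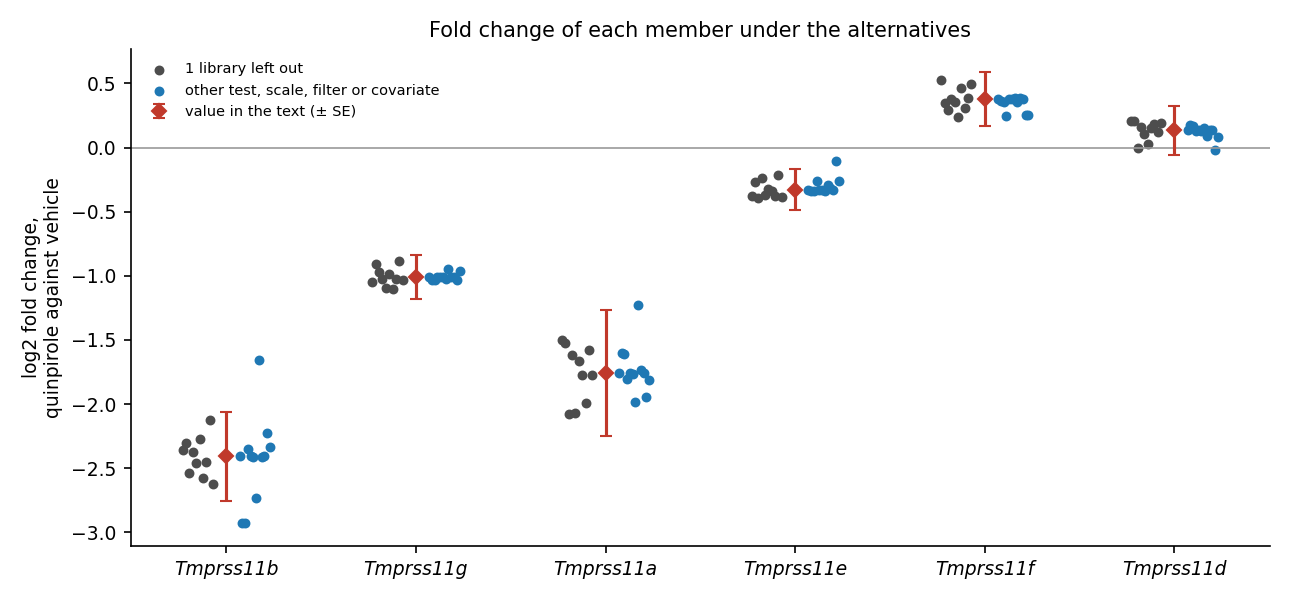
Log2 fold change of each member (vertical axis), with the value of the text as a red diamond with its SE, values with 1 library left out in grey, and values under another test, scale, filter or covariate in blue. Tmprss11b, Tmprss11g and Tmprss11a lie below 0 throughout, with Tmprss11b from -2.93 to -1.65.

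How the members varied together within the groups was examined after each group's mean was removed, over 10 libraries. The comparison that chose the members fitted each gene alone, but its p-values also use the spread within groups. These relations are therefore not fully independent of that choice. All 15 pairs of members were computed, and no pair passed after Benjamini-Hochberg adjustment. Tmprss11b and Tmprss11e had the highest Pearson's r, 0.73 (permutation p = 0.0148, adjusted p = 0.168; Spearman's rho = 0.60, permutation p = 0.0541, adjusted p = 0.290), falling to r = 0.47 once the 2 libraries farthest from the median of Tmprss11b were left out. Tmprss11b and Tmprss11g had r = 0.70 (permutation p = 0.0336, adjusted p = 0.168; rho = 0.62, permutation p = 0.0628, adjusted p = 0.290), and 0.55 without those 2 libraries, which were vehicle replicates 4 and 5. Tmprss11d and Tmprss11f had r = 0.66 (permutation p = 0.0476, adjusted p = 0.179; rho = 0.62, permutation p = 0.0773, adjusted p = 0.290), and 0.45 without quinpirole replicate 3 and vehicle replicate 1. Tmprss11f and Tmprss11g had r = -0.37 (permutation p = 0.341, adjusted p = 0.512; rho = -0.58, permutation p = 0.110, adjusted p = 0.331), and -0.34 without the 2 farthest libraries. By group, r was 0.85 in vehicle and 0.63 with quinpirole for Tmprss11b and Tmprss11e (5 libraries each). For Tmprss11b and Tmprss11g these were 0.90 and 0.30, for Tmprss11d and Tmprss11f 0.70 and 0.66, and for Tmprss11f and Tmprss11g -0.34 and -0.41. The count of 15 pairs includes the 5 with Tmprss11a. Its pair with Tmprss11b had r = 0.59 (permutation p = 0.0224, adjusted p = 0.168; rho = 0.59, permutation p = 0.0316, adjusted p = 0.290), and 0.57 without quinpirole replicates 3 and 5. By group this r was 0.62 in vehicle and 0.93 with quinpirole. The pair of Tmprss11a and Tmprss11e had r = 0.60 (permutation p = 0.0887, adjusted p = 0.233), and 0.50 without the same libraries. The quinpirole libraries of Tmprss11a fell into 2 clusters of values, which bears on the pairs given as well. For its remaining pairs no r is given.

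The genes most like each member in these deviations were named by the highest Pearson's r over the 10 libraries among 14542 other tested genes, as a description. Beside it stands r without removal of the group means. For Tmprss11f these were Ap1s3 (0.96, and 0.97 without centring), Pof1b (0.96 and 0.95), Greb1l (0.96 and 0.95), Yod1 (0.95 and 0.96) and Golga1 (0.95 and 0.96). For Tmprss11e they were Cct2 (0.97 and 0.96), Nudt1 (0.92 and 0.90), Cenph (0.92 and 0.87), Cxcr4 (0.92 and 0.94) and 2700094K13Rik (0.91 and 0.88). For Tmprss11d they were Gsdmc4 (0.94 and 0.92), Pou5f2 (0.90 and 0.88), Fam118b (0.89 and 0.69), Ggct (0.88 and 0.86) and Dph5 (0.86 and 0.77). Since these genes were picked for their r after centring, and these 3 members differed little between the groups, nothing is read from the closeness of both values.

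By the same measure the genes closest to Tmprss11a were 4833423E24Rik, Plrg1, Vwa9, the phospholipase gene Pla2g4d and the cornified envelope gene Lce3b. No r is given for these because of the split among the quinpirole libraries of Tmprss11a. Pla2g4d averaged 41.6 CPM in vehicle and 12.0 with quinpirole, with a difference of -1.73 on the log2 scale (limma adjusted p = 0.142), and Lce3b 126 and 33.3, with -1.98 (0.182). The log2 fold changes of 4833423E24Rik, Plrg1 and Vwa9 were small, at -0.11, -0.07 and 0.04 (limma adjusted p = 0.799, 0.782 and 0.890). For Tmprss11b the closest included 2010204K13Rik (0.97, and 0.20 without centring, on 28 reads in vehicle and 34 with quinpirole), Pcbd2 (0.96 and -0.14), the phosphate transporter Slc20a1 (0.96 and 0.96) and Gnpda1 (0.93 and 0.64). For Tmprss11g they were Hcls1 (0.94 and 0.78), Zfp37 (0.93 and -0.12), Pcdhb17 (0.93 and 0.77), Lair1 (0.92 and 0.28) and Ywhaq (0.92 and 0.67). With so few libraries other genes also reached such values. Of 14542 genes, r was at least 0.9 for 14 with Tmprss11b (0.096%), 34 with Tmprss11f (0.23%) and 8 with Tmprss11g (0.055%). It was so for 10 with Tmprss11a, 10 with Tmprss11e (0.069% each) and 2 with Tmprss11d (0.014%).

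The other membrane-anchored serine proteases were then examined, 9 tested genes of 19 listed. None was called by limma (smallest adjusted p 0.229), edgeR called none and DESeq2, which called 1.51% of all genes, called Prss22. Of the 9, 6 had lower and 3 higher means, 3 had an unadjusted p under 0.05 by limma (all lower, where 11.4% of all tested genes passed in either direction), and the median log2 fold change was -0.16. This median was 0.025 with no filter and -0.41 with a pseudocount of 0.1. St14 encodes matriptase and Prss8 prostasin, which act in one cascade in the epidermis. St14 measured 59.7 ± 16.1 CPM in vehicle and 44.1 ± 8.32 with quinpirole (-0.41 on the log2 scale, limma adjusted p = 0.430), and Prss8 measured 74.1 ± 4.01 and 78.8 ± 12.0 (0.08, 0.827). Prss22 had 31.5 ± 7.83 and 19.3 ± 3.75 (-0.66, 0.229), Prss27 had 132 ± 46.5 and 79.1 ± 18.8 (-0.69, 0.311), and Corin had 10.3 ± 8.35 and 4.01 ± 3.05 (-1.01, 0.532). With the hair and muscle covariates Corin was at -0.41 and -0.25, and St14 was at -0.24 with the hair covariate. Tmprss13 and Tmprss4, the relatives with the highest levels, differed little, with log2 fold changes of -0.09 (95% interval -0.41 to 0.23) and 0.03 (-0.23 to 0.29).

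Kallikreins are secreted serine proteases that cut the links between cornified cells. Of 10 tested members, limma called none, 7 had lower means and the median log2 fold change was -0.30. Unadjusted p by limma was under 0.05 for 4 (all lower), and for 11.4% of all tested genes in either direction. Klk13 had the smallest p, with 206 ± 69.2 CPM in vehicle and 92.4 ± 22.6 with quinpirole (-1.12 on the log2 scale, SE 0.22, limma adjusted p = 0.142). Its groups did not overlap, and 0.859% of all tested genes likewise had all quinpirole libraries lower. Klk12 had 7.24 ± 3.65 and 3.05 ± 0.901 (-0.94, 0.250), Klk10 had -0.62 (0.300) and Klk9 had -0.57 (0.383). Klk9 was at -0.91 with the muscle covariate and -0.37 without quinpirole replicate 1. DESeq2 called Klk12 and Klk13 (and 1.51% of all genes), and edgeR called none. For Klk5 and Klk7, the main desquamation proteases, limma gave 0.14 (adjusted p = 0.747) and -0.02 (0.977).

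The list of protease inhibitors held 27 tested genes, of which limma called none, and 16 had a positive log2 fold change. The median of the list was 0.15. By limma 7 had an unadjusted p under 0.05 (3 higher and 4 lower), against 11.4% of all tested genes. The best known inhibitors of membrane serine proteases are the HAI proteins. Spint1, which encodes HAI-1, had -0.23 on the log2 scale (SE 0.10, limma adjusted p = 0.407), and Spint2, which encodes HAI-2, had -0.14 (0.757). Cst6, which encodes cystatin M/E, an inhibitor of cysteine proteases, had 887 ± 183 CPM in vehicle and 1656 ± 578 with quinpirole (0.86 on the log2 scale, limma adjusted p = 0.192). Serpinb7 had 69.6 ± 29.2 and 135 ± 21.8 (1.03, 0.192), Serpina12 had 48.0 ± 26.1 and 99.5 ± 17.6 (1.26, 0.267), and Serpinb11 had 96.4 ± 17.8 and 66.1 ± 21.3 (-0.57, 0.300). DESeq2 called Serpinb7 and Cst6 (and 1.51% of all genes), and edgeR called none. With the muscle covariate the median of the list was -0.086.

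Reported substrates and partners of HAT-like proteases were examined next. Of 18 tested genes, limma, edgeR and DESeq2 called none, and the median was -0.07. An unadjusted p under 0.05 by limma was seen for 2 (both lower), where 11.4% of all tested genes passed. F2rl1, which encodes PAR2, measured 23.3 ± 5.10 CPM in vehicle and 20.7 ± 1.42 with quinpirole (-0.14 on the log2 scale, 95% interval -0.44 to 0.16). Scnn1a, Scnn1b and Scnn1g, the subunits of the epithelial sodium channel, had log2 fold changes of -0.09, 0.15 and -0.15 (limma adjusted p = 0.906, 0.677 and 0.819). Plau, which encodes urokinase, had 127 ± 27.2 and 97.2 ± 13.5 CPM (-0.36, 0.378), Mmp9 had 8.73 ± 4.34 and 4.28 ± 1.99 (-0.82, 0.388), and F2rl2, which encodes PAR3, had 0.40 (0.467). F2rl2 was at 0.25 with the hair covariate and 0.16 with the muscle covariate.

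Genes of the epithelial layers that hold these proteases went both ways. Of 32 tested suprabasal and mucosal-type genes, limma called none, 13 had a positive and 19 a negative log2 fold change. The median was -0.07. By limma 13 had an unadjusted p under 0.05 (4 higher and 9 lower), against 11.4% of all tested genes. Krt77 had 2.42 ± 2.17 CPM in vehicle and 7.50 ± 4.24 with quinpirole (1.37 on the log2 scale, limma adjusted p = 0.232), and the early differentiation keratin Krt10 had 1445 ± 376 and 2271 ± 511 (0.66, 0.281). Krt10 was at 0.35 with the muscle covariate. The cornified envelope genes Sprr2e and Lce3c had -1.43 (0.232) and -1.02 (0.286). Sprr2e is one of several near-identical genes, so its level is uncertain. DESeq2 called the stress keratin Krt6a, which had 5555 ± 1981 and 2806 ± 892 CPM (limma log2 fold change -0.96, adjusted p = 0.292), and edgeR called none. Over all genes DESeq2 called 1.51%. The mucosal keratins Krt4 and Krt13, known from the oesophagus and mouth, were below the filter, with 13 and 6 reads over the vehicle libraries and 19 and 7 over the quinpirole libraries.

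Among 33 tested regulators of epithelial differentiation, limma, edgeR and DESeq2 called none, and the median was -0.05. By limma 4 had an unadjusted p under 0.05 (2 higher and 2 lower), against 11.4% of all tested genes. The grainyhead-like factors had log2 fold changes of -0.07 for Grhl1 (95% interval -0.34 to 0.20), -0.08 for Grhl2 (-0.36 to 0.19) and -0.19 for Grhl3 (-0.75 to 0.37). The AP-1 subunits Junb and Fosl1 had -0.19 (limma adjusted p = 0.713) and -0.05 (0.981). The smallest p-values were those of Hopx, with 188 ± 28.1 CPM in vehicle and 131 ± 30.6 with quinpirole (-0.54, limma adjusted p = 0.237), the aryl hydrocarbon receptor gene Ahr (0.44, 0.293), Barx2 (0.50, 0.293) and Ovol1 (-0.39, 0.407). The interval of Grhl3 was the widest of the 3 GRHL factors.

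**Figure D5:**
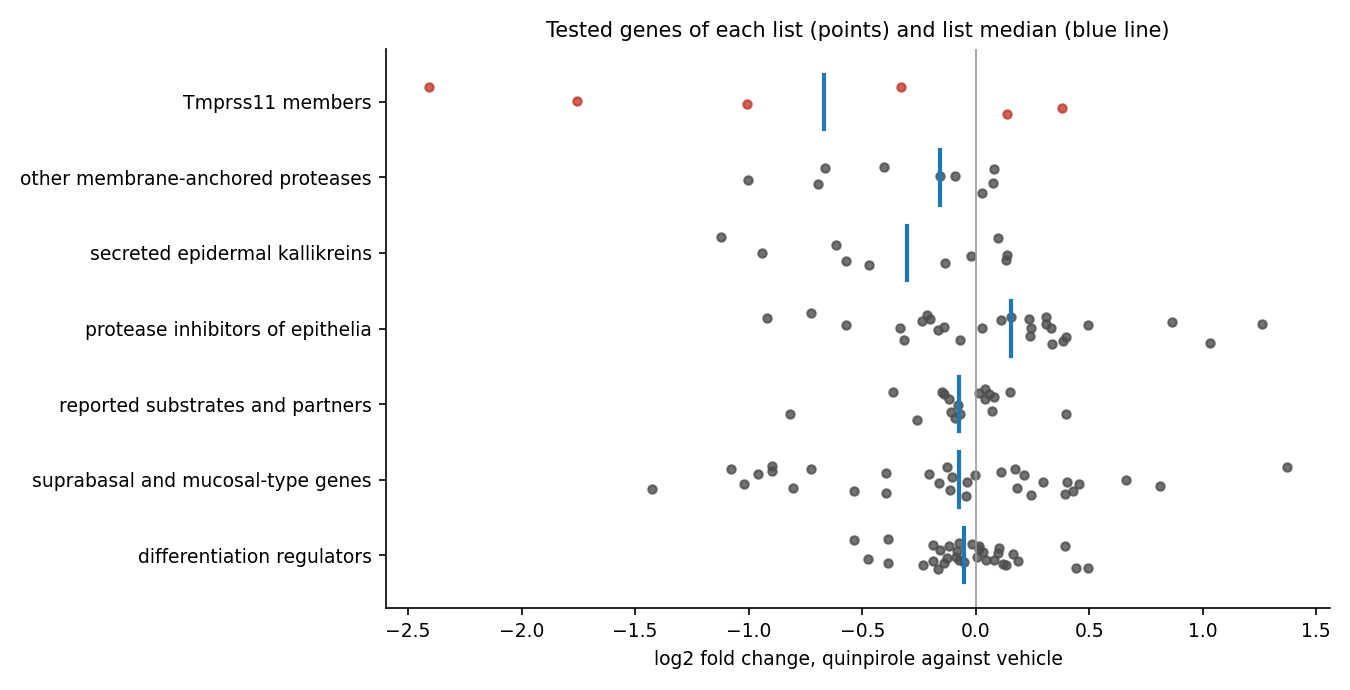
Log2 fold change of quinpirole against vehicle (horizontal axis) for each tested gene of the 6 lists (grey points) and for the 6 members (red points), with the median of each row as a blue line. The members' median is -0.67, and the medians of the lists lie between -0.30 for the kallikreins and 0.15 for the inhibitors.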

How the data were processed

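Total RNA of whole skin was depleted of ribosomal RNA and made into directional libraries, per the labels' protocols. Tools listed in the submitters' processing notes, without roles, are RSEM 1.3.0, Bowtie2, Trimmomatic 0.38 and edgeR, with the build mm10. What the authors deposited is a signal table, holding normalised counts per gene. In each library 100% of values were whole multiples of the value of 1 read within 1e-06, so reads were recovered, and the scaling equalled edgeR's TMM factors. For the annotation and gene filter, the processing is not given in the sources used here.

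Genes reaching 1 CPM in at least 5 libraries (14548) were tested on log2 of CPM plus 1 with limma 3.58.1, with a mean-variance trend and no covariates, two-sided, with Benjamini-Hochberg adjustment. Recovered counts from the authors' table went into edgeR 4.0.16 (quasi-likelihood) and DESeq2 1.42.0, as alternatives. Other alternatives were pseudocounts of 0.1 and 5, filters, scaling, marker covariates, a replicate block and leaving out each library. Permutations (100000) shuffled libraries within groups. In a simulation of this comparison with 14548 genes, of which 200 were changed, limma called 77.0% of 2-fold and 100% of 4-fold changes. The 200 changed genes ease the adjusted threshold, so these rates do not carry over to data with few calls.

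The genes named were the members, the 4 smallest p of each of 6 lists, the 5 genes most like each member, the nearest tested genes beside the cluster and 4 keratins. One gene that this rule names is not reported here. Genes named beside these, after their values were seen, are Prss8, Tmprss13, Tmprss4, Klk5, Klk7, Spint1, Spint2, F2rl1, Scnn1a, Scnn1g, Krt6a, Krt4, Krt13, Junb, Fosl1 and the Grhl genes. Members and lists were chosen with earlier results of these data known. Within groups, no pair of libraries agreed within sampling noise (lowest chi-square per gene 6.41). Figures were drawn with matplotlib 3.10.9.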

Additional observations from a re-analysis of the deposited data

Results flagged for a closer look

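Of 60 sets of 5 values (1 gene in 1 group), 2 held a value far from the other 4, and chance gives about 1 such set in 20. Tmprss11e was at 55.2 CPM in vehicle replicate 4, and the remaining 4 vehicle values were 33.6 to 39.7. When that library was left out, its log2 fold change was -0.21. Vehicle replicate 4 was also the highest vehicle library for Tmprss11a, Tmprss11b and Tmprss11g. Cst6, the cystatin M/E gene, was at 2655 CPM in quinpirole replicate 2, against 1310 to 1663 in the other quinpirole libraries.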

How the results depend on the processing

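Each result was recomputed under 22 alternatives where it applied (13 for relations within groups). Tmprss11a, Tmprss11b, Tmprss11e, Tmprss11f and Tmprss11g kept their direction in all 22, and Tmprss11d in 20. Tmprss11b was -1.65 with a pseudocount of 5. Leaving out 1 library gave -2.08 to -1.50 for Tmprss11a, -0.39 to -0.21 for Tmprss11e, 0.24 to 0.52 for Tmprss11f and -0.73 to -0.55 for the median of the members. The number of genes called, 3 by limma, was 5 with 1 CPM required in all libraries, 5 with edgeR, 219 with DESeq2, 6 with no filter, 5 with plain CPM, 5 with a pseudocount of 0.1, 14 with the hair covariate, 5 with the suprabasal covariate and 0 with the muscle covariate (1182 unadjusted). Leaving out 1 library gave 0 to 10 calls (10 without vehicle replicate 5, 1 without vehicle replicate 3 and 0 without any other), and 1312 to 2215 genes passed 0.05 unadjusted. With the replicate number as a block limma called 0 (1576 unadjusted). Libraries with the same number correlated at -0.24 to 0.22 in their deviations, over 0.1 in 3 of 5 pairs, and 1 of the 5 vehicle libraries correlated best with its own number, so the numbers were not taken to pair libraries. DESeq2, with 1.51% of all genes called, called 1 other membrane-anchored protease, 2 kallikreins, 2 inhibitors and 1 suprabasal gene, against 0 by limma. The median of the other membrane-anchored proteases was 0.025 with no filter, -0.41 with a pseudocount of 0.1 and -0.32 to -0.10 with 1 library left out, and that of the inhibitors was -0.086 with the muscle covariate. With 1 library left out, Uba6 ranged from -0.11 to 0.057. Among pairs with r near 0 over all 10 libraries, r of Tmprss11b and Tmprss11d was -0.04, 0.018 with a pseudocount of 0.1 and -0.39 to 0.18 with 1 library left out. Such ranges were -0.28 to 0.060 for Tmprss11e and Tmprss11f and -0.19 to 0.25 for Tmprss11d and Tmprss11e. Within single groups of 5, r of Tmprss11b and Tmprss11d was -0.63 in vehicle and 0.96 with quinpirole. The value near 0 thus joins values of opposite sign, each from few libraries, and a difference between the groups was not tested. For Tmprss11d and Tmprss11e, r by group was -0.39 and 0.49, and for Tmprss11e and Tmprss11f -0.11 and -0.15. The number of related pairs, 0, was 0 to 1 with 1 library left out: Tmprss11a and Tmprss11b without vehicle replicate 3 and Tmprss11b and Tmprss11g without quinpirole replicate 3. The cause of these changes was not tested. Among the members, Tmprss11b under quinpirole rested on the fewest reads, 113.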
